A study of Mus musculus with 16 samples.

Results

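Naive CD4 T cells of the mouse spleen were taken from single-cell CITE-seq data, a droplet method in which barcoded antibodies are counted beside each cell's transcripts. The cells were chosen by measured values, namely antibody counts and RNA. The rule asked for at least 40 counts of the T-cell receptor (TCR) antibody, at least 100 of CD4, under 15 of CD8a and under 100 of B220, the B-lineage form of CD45. It further asked for 2 or more unique molecular identifiers (UMIs, each a counted RNA molecule) over Lef1, Igfbp4, Ccr7 and Dapl1, and for 0 UMIs over S100a4, S100a6, Itgb1, Ccl5, Foxp3 and Ikzf2. Of 7097 droplets, 327 met the antibody gate and 105 of these met the RNA rule. The spleens came from 9-month-old female BALB/cJ mice with no treatment or engineered allele named in the labels. The data come as 2 libraries, Main1 and Main2, and the labels do not say that these are different animals, so every p-value measures at most the spread between 2 libraries, which may be technical. In the edgeR gene tests that spread was largely pooled across genes. Since the cells were selected on RNA, a gene that goes with the rule genes from cell to cell differs in part through the selection.

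A naive T cell has left the thymus and has not yet met its antigen. It circulates between blood and lymphoid organs, entering the T zones through the chemokine receptor CCR7 and leaving along a gradient of sphingosine-1-phosphate. It is kept alive without dividing by survival signals, and the transcription factors TCF-1 (gene Tcf7) and LEF-1 (gene Lef1) are part of its program. After activation such cells gain the adhesion receptor CD44 and take up effector, memory or regulatory programs.

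Promoter windows are shown for the genes named below as higher in naive cells that hold CTTTGA, the core of the sequence bound by TCF-1 and LEF-1. The windows are the 250 bases before the RefSeq transcription start in GRCm38.p6, and capitals mark a match read on either strand. Txk lies at chr5:72752778-72753027 (minus strand), Emb at chr13:117220323-117220572 (plus strand) and Mpnd at chr17:56008951-56009200 (plus strand).
Txk: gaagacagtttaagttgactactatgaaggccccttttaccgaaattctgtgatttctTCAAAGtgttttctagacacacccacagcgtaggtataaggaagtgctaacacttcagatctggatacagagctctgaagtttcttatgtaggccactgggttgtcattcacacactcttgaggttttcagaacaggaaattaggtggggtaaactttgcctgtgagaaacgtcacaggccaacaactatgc
Emb: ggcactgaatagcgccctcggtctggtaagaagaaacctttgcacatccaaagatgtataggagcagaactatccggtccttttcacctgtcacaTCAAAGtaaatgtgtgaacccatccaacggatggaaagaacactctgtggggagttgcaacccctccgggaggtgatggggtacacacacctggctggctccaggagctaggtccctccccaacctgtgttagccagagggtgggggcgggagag
Mpnd: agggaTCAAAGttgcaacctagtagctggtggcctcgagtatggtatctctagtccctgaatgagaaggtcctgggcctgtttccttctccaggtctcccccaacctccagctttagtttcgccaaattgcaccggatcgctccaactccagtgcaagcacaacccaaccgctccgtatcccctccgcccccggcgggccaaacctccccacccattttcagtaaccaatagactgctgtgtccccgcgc
The match begins 192 bases before the start in Txk, 155 in Emb and 245 in Mpnd. Windows were found for 9 of the 12 genes named as higher, and 3 of their 12 windows held the letters, against 13.8% of all 32851 windows and 10.8% of the 1960 windows of tested genes. The 12 windows of the genes named as lower held none. The other 3 motifs were searched on both strands. The KLF letters CCACACCC were found in 1 of the 12 windows of higher genes (Tcf7) and in 0 of the 12 of lower genes, against 3.20% of all windows and 3.11% of those of tested genes. The ETS letters CCGGAAG were found in 3 (Klhdc2, Rapgef6 and Tcf7) and 2 (Fcer1g and Sh3bgrl), against 6.91% and 17.0%. The FOXO letters TGTTTAC were found in 0 and 0, against 3.17% and 1.73%. The motifs and the windows shown were chosen after the called genes were known. These are matches of letters and do not show that a factor binds there.

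Naive cells made up 32.1% of the gate (95% exact binomial interval 27.1 to 37.5, counting error only). The share was 30.1% in Main1 (52 of 173 cells) and 34.4% in Main2 (53 of 154), with intervals that overlapped widely. Naive cells had a median of 1967 UMIs (1181 to 6263) and a total of 216655, and the other 222 cells of the gate a median of 1946 and a total of 557125. For closer comparison the other cells were divided by the same genes: 49 effector-like cells (2 or more UMIs over S100a4, S100a6, Itgb1 and Ccl5, none over Foxp3 and Ikzf2), 86 cells with Foxp3 or Ikzf2, and 38 marker-poor cells that lacked the excluded genes but had 0 or 1 UMI over the required ones. The remaining 49 fell in none of these classes. The 2 libraries shared 14 cell barcodes, none of them in a naive cell.

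The rule genes describe the selection and were not tested. Lef1 was at 919 CPM (the UMIs of a gene scaled to a fixed library total) in the naive cells of Main1 and 997 in those of Main2, against 318 and 230 in the other cells. Igfbp4 was at 870 and 612 CPM against 178 and 86.8, and Ccr7 at 489 and 551 CPM against 171 and 158. Cd4 mRNA, the remaining marker, stood at 137 and 157 CPM in naive cells and 178 and 158 in the others, and 26.7% of naive cells had a Cd4 UMI against 0.725% of 5380 B220-positive, TCR-negative droplets (median 1666.5 UMIs). Lef1, Igfbp4 and Ccr7 are high through the selection and say nothing on the label, and Cd4 mRNA was not higher in naive cells than in the other cells of the gate (log2 fold -0.16, 95% interval -0.80 to 0.49). The required genes had a median of 5 UMIs per naive cell (2 to 16). The 13 cells just inside the threshold, at 2 UMIs, had a median of 53 CD44 antibody counts and 229 CPM of Tcf7. The 28 marker-poor cells just outside it, at 1 UMI, had a CD44 median of 49, with Tcf7 at 137 CPM.

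**Figure D1:**
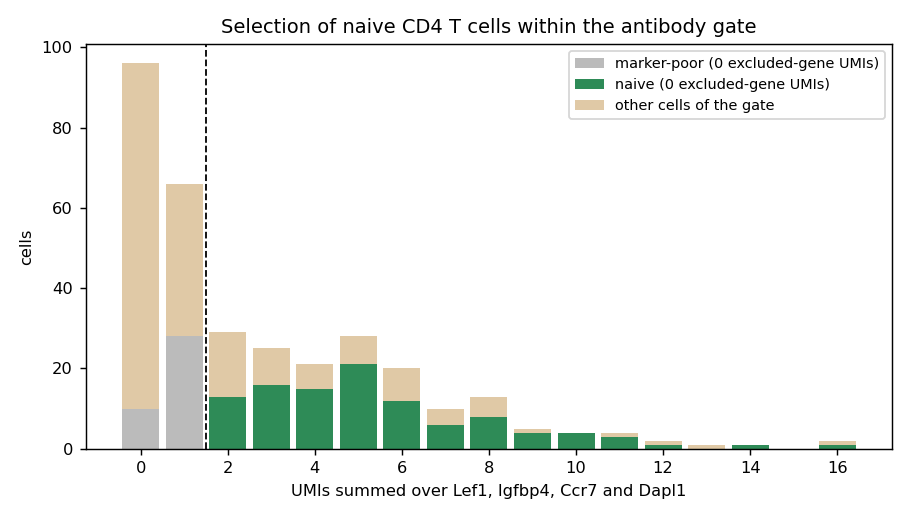
Number of cells of the CD4 antibody gate (y axis) by UMIs summed over the 4 required genes (x axis), with the dashed line at the threshold of 2. Green bars are the 105 naive cells, grey bars the 38 marker-poor cells and tan bars all other cells of the gate, which also occur right of the line because they carry UMIs of an excluded gene.

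Transcripts of other cell types made up a small share of the UMIs of naive cells. The 14 B-cell markers made up 0.292% of naive UMIs in Main1 and 0.365% in Main2, with Pax5 at 0 and at most 0.944% in any naive cell. In the other cells they made up 0.915% and 6.13%, with single cells up to 49.4%, and 3 of 7 tested markers (Igkc, Ighm and Cd74) were called lower in naive cells. Medians per cell were close, at 0.282% and 0.353% in naive cells and 0.314% and 0.369% in the others. Most cells held some of these transcripts. Only 7 of 105 naive and 20 of 222 other cells had at most 1 UMI over Cd79a, Cd79b, Ms4a1, Ighm, Ighd and Igkc. The 11 myeloid markers made up 0.0567% and 0.0717% of naive UMIs, with Csf1r and C1qa at 0 in both libraries, against 0.124% and 0.160%, and 4 of 8 tested (Fcer1g, Tyrobp, Cst3 and Lgals3) were called lower. The 5 measured NK markers made up 0.00391% and 0.00262% against 0.0298% and 0.00528%, with Ncr1, Klre1 and Prf1 at 0 in naive cells. In the main comparison below, which gave these calls, 3.59% of all tested genes were called lower. The part of these transcripts in the results below was not tested.

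Surface CD44, which T cells gain on activation, had the largest fold among antibodies with an unadjusted p under 0.05. The median was 45 counts in the naive cells of Main1 and 51 in those of Main2. In the other cells it was 181 and 178. As a share of antibody counts, CD44 came to 2.76% and 2.81% in naive cells and 6.84% and 6.17% in the others, without overlap between the libraries of the groups. The log2 fold was -1.22 (SE 0.073, 95% interval -1.55 to -0.90), and the adjusted p in edgeR's quasi-likelihood test was 0.0939. None of the 26 antibodies outside the gate passed (0.0% called, 6 at an unadjusted p under 0.05). CD44 passed in each of the 5 alternatives with a test, with adjusted p from 4.81e-08 in droplets under 4000 UMIs to 0.0406 with TMM scaling. The share of cells with 100 or more CD44 counts, a limit chosen after the values were seen, was 16.2% in naive cells (9.72 to 24.7). It was 42.1% in marker-poor cells, 84.9% in Foxp3 or Ikzf2 cells and 93.9% in effector-like cells. These are raw counts, and the classes differed in total antibody counts. Median totals per cell were 2137 in naive, 1863 in marker-poor, 2778.5 in Foxp3 or Ikzf2 and 3365 in effector-like cells.

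CD31, an adhesion molecule of endothelium and leukocytes, had medians of 35 and 38 counts in naive cells and 30 and 29 in the other cells. Its log2 fold was 0.68 (SE 0.053), with an adjusted p of 0.0939, and it passed without the library block and in droplets under 4000 UMIs. The costimulatory receptor CD27 had medians of 44 and 48 in naive cells and 42 and 53 in the others, and a log2 fold of 0.22 (adjusted p 0.193). Ly6C, found on memory T cells and monocytes, had a log2 fold of -1.11 (adjusted p 0.193), but 28.5% of its counts in the other cells came from 1 cell. CD90 counts were wide in every class, from 31 to 4428 in naive cells. The gate antibodies were close in both groups, with a CD4 median of 323 counts in naive cells and 325 in the others.

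**Figure D2:**
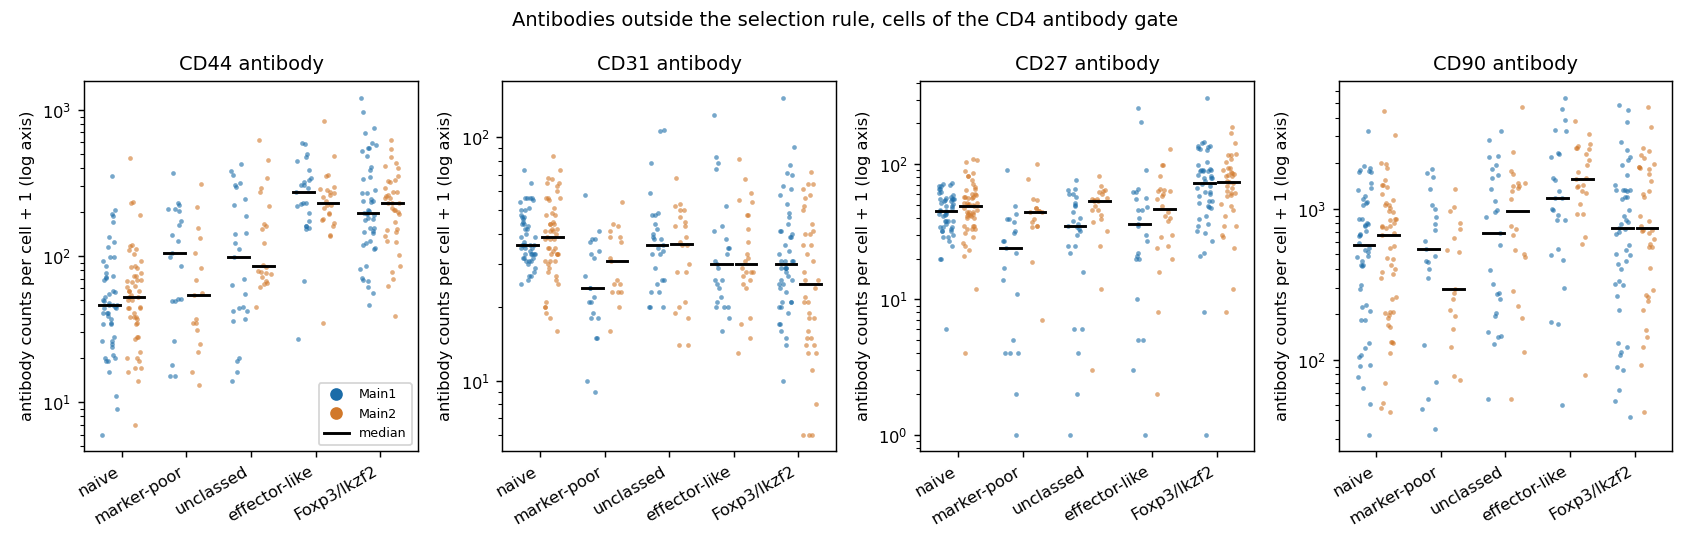
Antibody counts per cell plus 1 (y axis, log scale) for CD44, CD31, CD27 and CD90 in the 5 classes of the gate (x axis), with Main1 in blue, Main2 in orange and black bars at medians. CD44 medians are 45 and 51 in naive cells and 273 and 230 in effector-like cells, while CD27 and CD90 overlap more.

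The main comparison asked which transcripts set naive cells apart from the other CD4 cells of the same spleens. UMIs were summed per library and group, and 1950 genes were tested by edgeR with the library as a block. In all, 158 genes passed (8.1% of those tested), 88 higher (4.51%) and 70 lower (3.59%) in naive cells. Without the block 83 passed, all of them among the 158, and DESeq2 called 1 gene, Jchain, with 44 at an unadjusted p under 0.05. The median log2 fold over all tested genes was -0.02.

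Of the 20 genes of a naive and quiescent T list, 17 had enough UMIs and 5 rose, among them Tcf7, S1pr1, Txk and Actn1. Over all tested genes 4.51% rose, and outside the ribosomal protein genes 28 of 1869 did. The other 12 did not pass. All 17 folds were above 0, with a median log2 fold of 0.37. The 3 untested members were Bach2, Treml2 and Als2cl.

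S1pr1, the sphingosine-1-phosphate receptor of egress (3:115710433-115715072 in mm10, GENCODE vM21), was at 323 and 332 CPM in the naive cells of Main1 and Main2, and at 171 and 170 CPM in the other cells. The naive values lay above both others, with a log2 fold of 0.97 (SE 0.26, adjusted p 0.0169). The call was lost in the stricter antibody gate (0.56, adjusted p 0.419), at 3 or more UMIs over the required genes (0.75, adjusted p 0.103) and in cells thinned to 1000 UMIs (0.71, adjusted p 0.247). An S1pr1 UMI was found in 46.7% of naive and 33.8% of other cells, and in 28.6% and 19.4% once each cell was thinned to 1000 UMIs. B cells transcribe the gene too, and 23.8% of B220-positive droplets had an S1pr1 UMI.

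Tcf7, the gene of TCF-1 (11:52252371-52283014), is a T-lineage transcript. It was at 313 and 376 CPM in naive cells against 175 and 181 in the others, with a UMI in 46.7% and 31.1% of cells and in 0.502% of B220-positive droplets (log2 fold 0.98, SE 0.25, adjusted p 0.0138). The groups did not overlap. Txk, a kinase of the Tec family in T-cell receptor signalling and one of the promoters shown above, was at 264 and 481 CPM against 113 and 193 (log2 fold 1.30, SE 0.26, adjusted p 0.00137). Txk differed between libraries in both groups, with Main2 the higher. Its call was lost without the library block (adjusted p 0.0703) and in thinned cells, where the log2 fold was 0.61 (adjusted p 0.409). Actn1, an actin crosslinker, had the largest fold of the named higher genes, at 195 and 236 CPM against 82.2 and 60.4 (log2 fold 1.62, SE 0.32, adjusted p 0.00141).

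The 12 named genes with the largest positive folds held 7 others. Mpnd, an MPN-domain protein, was at 127 and 140 CPM against 61.6 and 30.2, and Emb, a partner of monocarboxylate transporters, at 332 and 359 against 188 and 177. The others were Sptbn1 (1.46), a spectrin chain, Emc6 (1.17), a subunit of the ER membrane protein complex, Rapgef6 (1.08), an activator of Rap GTPases, Gm12840 (1.10) and Klhdc2 (1.51), with log2 folds in brackets. Klhdc2, a substrate receptor of a ubiquitin ligase, differed mainly in Main2. It stood at 78.2 against 61.6 CPM in Main1 and 201 against 37.7 in Main2. Mpnd, Klhdc2, Sptbn1 and Emc6 lost their call without the library block, and Emc6, Gm12840, Rapgef6 and Emb lost theirs in the stricter gate.

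Other members of the naive list did not pass. Satb1, a chromatin organiser of T cells, stood at 215 and 184 CPM against 89.0 and 132 (log2 fold 0.87, adjusted p 0.113). Ms4a4b had a log2 fold of 0.29 (adjusted p 0.0563). Klf2, a factor that drives S1pr1, had a log2 fold of 0.35 with a 95% interval of -0.17 to 0.86, and Il7r, the receptor for the survival cytokine IL-7, had 0.05 with an interval of -0.55 to 0.66.

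Of the 13 tested genes of cytokine receptors and signalling 1 rose and 1 fell, with a median log2 fold of 0.11. With 8.1% of all tested genes called, these counts do not set the list apart. Bcl2, an inhibitor of apoptosis, rose, at 811 and 647 CPM in naive cells and 373 and 434 in the others (log2 fold 0.88, SE 0.19, adjusted p 0.0028). A Bcl2 UMI was found in 67.6% of naive and 42.8% of other cells. Il2rb, the IL-2 receptor beta chain, fell, at 19.5 and 35.0 CPM against 123 and 90.6 (log2 fold -1.88, adjusted p 0.0215). In a homing and egress list 2 of 10 tested genes rose, S1pr1 among them, and Ccr2 fell. Over all tested genes 4.51% rose and 3.59% fell. Il2rb and Ccr2 reached the limit for testing only through the other cells. Npc2, a cholesterol carrier of lysosomes, was at 860 and 980 CPM against 596 and 513 (log2 fold 0.76, adjusted p 0.00146).

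**Figure D3:**
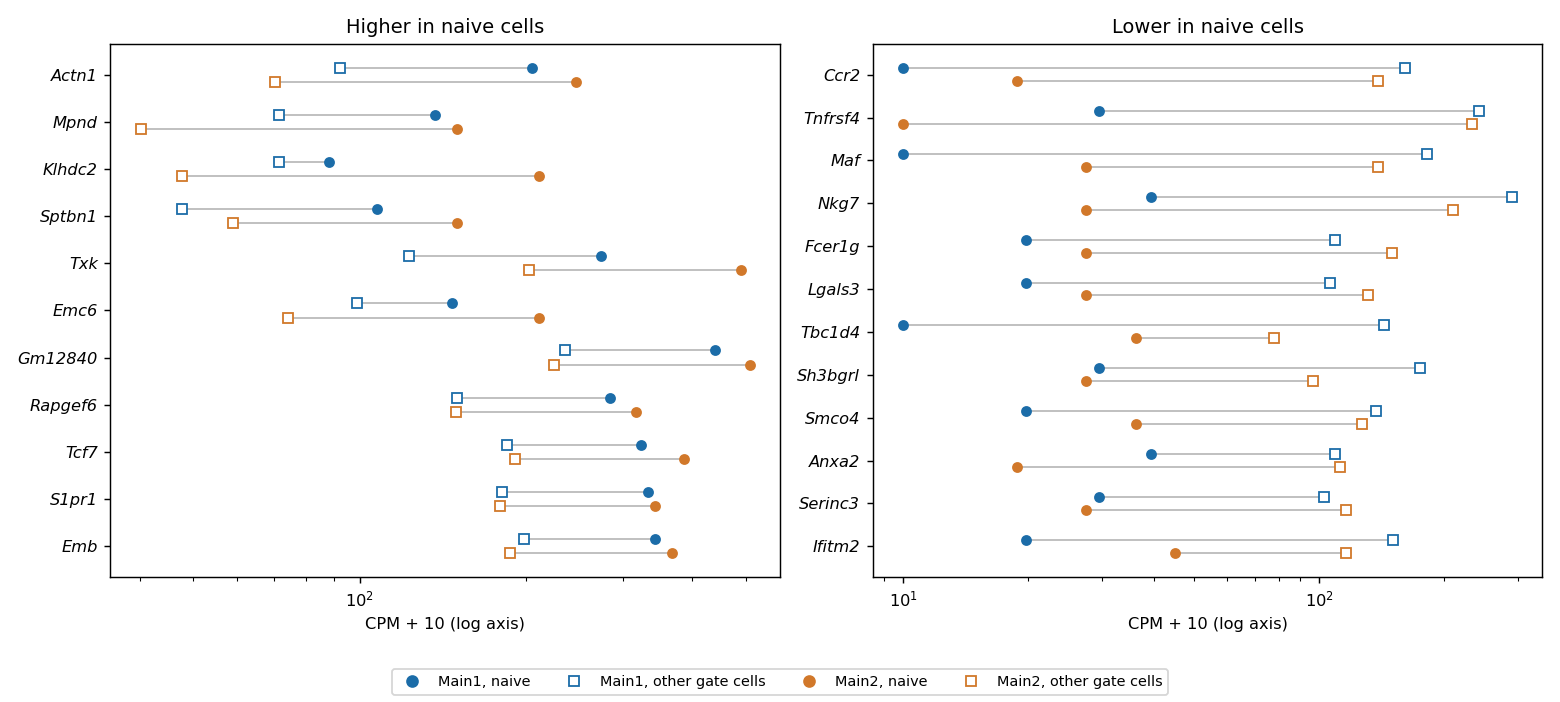
CPM plus 10 (x axis, log scale) of 11 of the 12 genes with the largest positive fold and the 12 with the largest negative fold that met the naming rule, in naive cells (filled circles) and the other cells of the gate (open squares), with Main1 in blue and Main2 in orange. Genes were plotted only where both libraries had the same direction, and Klhdc2 in Main1 has the smallest gap among the higher genes.

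Ribosomal protein genes formed most of the higher calls. Of 81 tested, 60 rose, none fell and 79 had a positive fold, with a median log2 fold of 0.31. Of all tested genes 4.51% rose, and outside this list 28 of 1869. The folds were small, and those of the 60 ran from 0.24 to 0.61. Rps29, at 15021 and 14475 CPM in naive cells against 10081 and 9710 in the others, had the largest (log2 fold 0.61, SE 0.060, adjusted p 2.79e-07). The libraries of each group lay close together and the groups did not overlap. Several genes named as copies of ribosomal protein genes, such as Rps27rt and Rpl13-ps3, were also called, and reads shared with their parent genes make them uncertain.

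Transcripts of these genes made up 36.5% of all naive UMIs in Main1 and 36.6% in Main2. The share was 30.4% and 28.3% in the other cells together. It was 28.4% and 24.9% in effector-like cells, 29.0% and 27.3% in Foxp3 or Ikzf2 cells and 31.6% and 33.0% in marker-poor cells. The naive share was the highest of these classes in each library, and the 49 cells in none of the classes came near it, with per-cell medians of 35.8% and 35.1%. Per cell it ran from 21.8% to 46.2% in naive cells, so single cells of the classes overlapped. Median depth was 1967 UMIs in naive and 1946 in other cells. The deposited table lists 0 mitochondrial genes, so that sign of RNA quality could not be read.

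**Figure D4:**
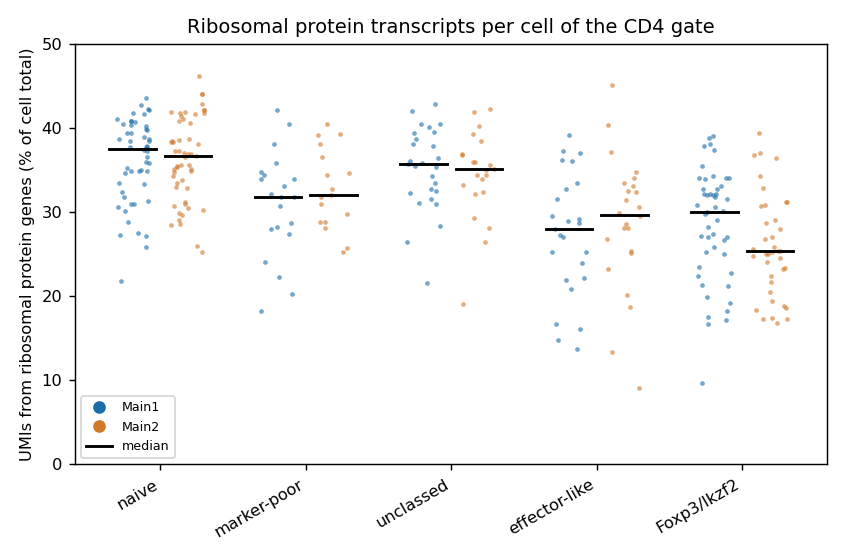
Share of each cell's UMIs from ribosomal protein genes (y axis, percent) by class of the gate (x axis), with Main1 in blue, Main2 in orange and black bars at medians. Medians of naive cells are 37.5% and 36.6%, and those of effector-like cells 28.0% and 29.7%.

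Genes of effector and memory T cells were lower. Of 18 tested members of that list 14 fell, none rose and the median log2 fold was -1.71. Over all tested genes 3.59% fell. Some of the 14, such as Ccr2, Maf, Lgals3, Nkg7 and Il2rb, had enough UMIs for testing only through the other cells. Their direction was fixed by that limit, so they add no support to the count or the median. Lgals1, the gene of galectin-1, was at 244 and 385 CPM in naive cells and 1568 and 875 in the others (log2 fold -1.87, SE 0.20, adjusted p 1.04e-06). S100a10 was at 381 and 306 CPM against 1078 and 947, and S100a11 at 127 and 201 against 555 and 615. S100a10 and S100a11 belong to the S100 family, whose members S100a4 and S100a6 the rule excludes. Nkg7, a granule protein of cytotoxic cells, was at 29.3 and 17.5 CPM against 281 and 200 (log2 fold -3.29, SE 0.47, adjusted p 3.95e-05). Anxa2, Ahnak, Capg, Crip1 and Id2 fell as well, with log2 folds from -2.37 for Anxa2 to -0.92 for Crip1. Cd44 mRNA, with 4 UMIs in naive and 38 in other cells, was under the limit for testing.

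Some lower genes were all but missing from naive cells, and their fitted folds are no bounds. Ccr2, a chemokine receptor of inflammatory migration, had 1 UMI in naive cells and 78 in the others, a CPM ratio of 30.3 (exact 95% interval 5.29 to 1213). Maf, a transcription factor of helper and regulatory cells, had 2 and 84, a ratio of 16.3 (4.38 to 137). Lgals3 had 3 and 60 (7.78, 2.54 to 38.8), Fcer1g 3 and 66 (8.56, 2.80 to 42.5) and Tbc1d4 3 and 57 (7.39, 2.40 to 36.9). These 5 were called by edgeR, and these intervals cover counting error only. Lgals3 and Fcer1g are also myeloid transcripts. Sh3bgrl, Smco4, Serinc3 and Ifitm2 were the remaining named genes, with 4, 4, 4 and 5 UMIs in naive cells and 71, 68, 55 and 69 in the others. They too reached the limit only through the other cells.

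Regulatory genes outside the rule were lower too. Of 3 tested, all 3 fell: Tnfrsf4 (OX40), with 2 UMIs in naive cells and 127 in the others, Tnfrsf18 (GITR) with a log2 fold of -1.10, and Izumo1r (folate receptor 4) with -1.27. Over all tested genes 3.59% fell. The reference holds 86 cells chosen for Foxp3 or Ikzf2, so this direction is partly that of the rule. Tnfrsf4 also reached the limit for testing only through the other cells, so its fall adds no support to this count. Tnfrsf18 kept 25 UMIs and Izumo1r 42 in naive cells, with an Izumo1r UMI in 19.0% of them.

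Single cells carried some calls. In the other cells, 1 cell gave 49.1% of Jchain and 44.1% of Igkc UMIs. Among the other cells 4 droplets, and among naive cells 0, had over 5% of their UMIs from immunoglobulin genes. Without these 4 droplets, a limit chosen after the values were seen, 168 genes passed and 144 of them were shared with the 158. Fos, an immediate early gene, fell (log2 fold -2.71, adjusted p 0.00428), but rested on 3 naive UMIs and mainly on Main2, where the others had 158 CPM against 20.5 in Main1.

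Genes of T-cell identity, respiration and sugar breakdown gave no calls in this comparison, where 8.1% of all tested genes were called. For the short lists below (20, 7, 11 and 5 genes) the counts are near what that share gives and do not set them apart. Of 20 identity and receptor signalling genes none passed, with Cd3e at 909 and 1023 CPM in naive cells and 911 and 1030 in the others (log2 fold 0.02, 95% interval -0.23 to 0.27). Trbc2 had a log2 fold of -0.15 (-0.33 to 0.02) and Lck -0.09 (-0.41 to 0.23). None of 77 oxidative phosphorylation genes passed, with a median log2 fold of 0.03, and their share of naive UMIs was 2.23% and 2.45% against 2.35% and 2.38%. None of 7 glycolysis genes passed, and Gapdh stood at -0.50 (adjusted p 0.148). Of 11 immediate early genes only Fos passed, and of 5 interferon response genes only Ifi27l2a, which fell (-0.82, SE 0.12, adjusted p 5.64e-05). Malat1, a nuclear noncoding RNA, was slightly lower in naive cells, at 29339 and 30105 CPM against 35720 and 38529 (log2 fold -0.29).

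**Figure D5:**
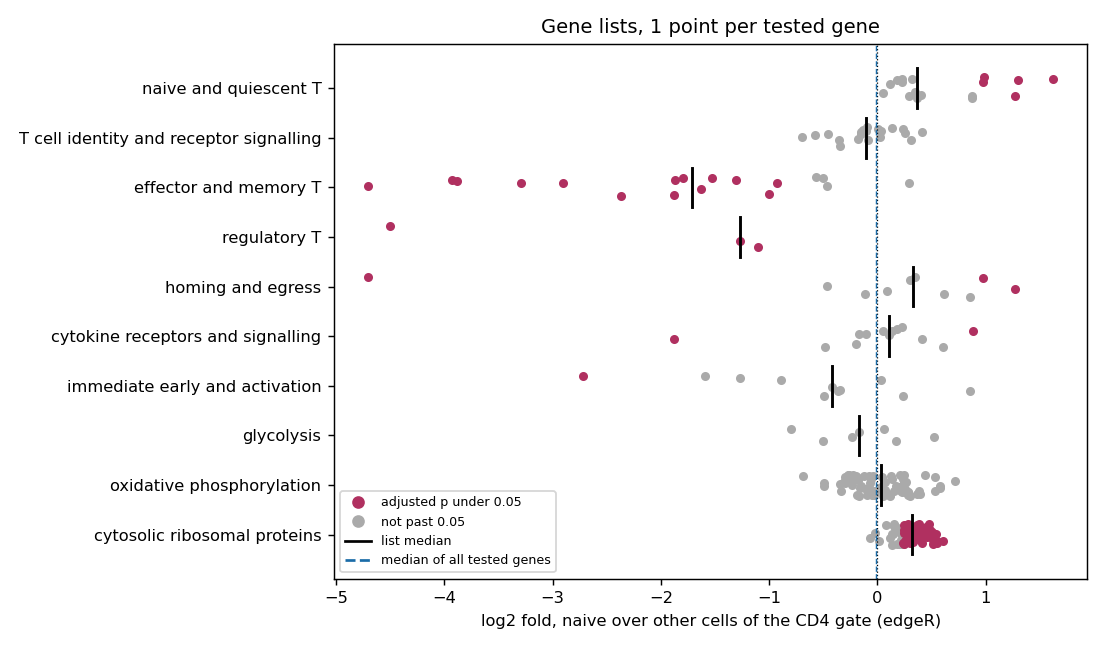
Log2 folds of naive over other cells (x axis, edgeR) for the tested genes of 10 lists (y axis), with genes past an adjusted p of 0.05 in red, others in grey, black bars at list medians and a dashed line at the median of all tested genes. The naive list has a median of 0.37, ribosomal proteins 0.31 and effector genes -1.71, while oxidative phosphorylation sits at 0.03.

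Against the effector-like cells, 859 genes were tested and 41 passed (4.77%), 9 higher (1.05%) and 32 lower (3.73%). Actn1 was at 195 and 236 CPM in naive cells and 48.8 and 65.2 in effector-like cells (log2 fold 1.68, adjusted p 0.0287). Npc2, Rpl12 and Rps26 were higher as well. Lgals1 was lower, at 244 and 385 against 2552 and 782 CPM, as were Nkg7, Ahnak, S100a11 and Prr13, the last at 108 and 157 against 699 and 337. Each of these 5 differed more in Main1 than in Main2, and Nkg7, Ahnak, Lgals1 and Prr13 lost their call without the block. Nkg7, with few naive UMIs, reached the limit for testing only through the effector-like cells. Of 13 effector genes 9 fell and of 14 naive genes 2 rose. Tcf7 did not pass here (log2 fold 0.22, 95% interval -0.47 to 0.90), nor did Bcl2 (0.43, -0.01 to 0.86). Of 80 ribosomal protein genes 5 rose, with 76 folds positive. B-cell marker transcripts were 0.367% of effector-like UMIs in Main1 and 16.1% in Main2, and 27 genes passed without the immunoglobulin-rich droplets. The call count was 3 without the block, 8 in droplets under 4000 UMIs and 2 with DESeq2, none of them higher in naive cells. With total UMIs in place of TMM 5 were higher, and without the immunoglobulin-rich droplets 6. The higher calls thus depend on the settings.

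Against the 86 Foxp3 or Ikzf2 cells, 1125 genes were tested and 165 passed (14.7%), 97 higher (8.62%) and 68 lower (6.04%). Txk was at 264 and 481 CPM in naive cells and 36.4 and 149 in these cells, a log2 fold of 2.15 (SE 0.37, adjusted p 4.14e-07). Of 14 naive genes 7 rose, which brought in Satb1 and Ms4a4b. Tcf7 had a log2 fold of 1.37, S1pr1 1.42 and Bcl2 1.27. Gm12840 and Gtf2i were named as higher as well, and 58 of 80 ribosomal protein genes rose. Of 6 tested glycolysis genes 1 rose (Eno1) and 2 fell (Gapdh and Gpi1). Tnfrsf4 had 2 UMIs in naive cells and 95 here, a CPM ratio of 44.5 (12.0 to 373), and Izumo1r was at 225 and 166 against 778 and 726 CPM. Maf, Ccr2, Nkg7 and Sh3bgrl were lower too. With few naive UMIs, Tnfrsf4, Maf, Ccr2, Nkg7 and Sh3bgrl reached the limit for testing only through the Foxp3 or Ikzf2 cells. The libraries differed from the pooled ratio by over 1.5-fold for Tnfrsf4 (log2 ratio of CPM plus 10 at -3.63 in Main1 and -5.65 in Main2), Maf (-4.88 and -3.22) and Actn1 (1.45 and 2.55). DESeq2 called 2 genes, both lower in naive cells.

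The fewest calls came against the 38 marker-poor cells, which were also the smallest class in cells and UMIs. Of 686 genes 4 passed (0.583%), with Rpl37, Gm8730 and Rps7 higher (0.437%) and Malat1 lower (0.146%), and 71 were at an unadjusted p under 0.05. Malat1 was at 29339 and 30105 CPM in naive cells and 48848 and 38616 in marker-poor cells (log2 fold -0.60, SE 0.046). Txk was at 264 and 481 CPM against 85.4 and 99.5, with a log2 fold of 1.92 and an adjusted p of 0.068. Tcf7 had 1.42 (adjusted p 0.205) and S1pr1 0.12, with a 95% interval of -0.72 to 0.96. Marker-poor cells had a median of 1520.5 UMIs, below that of naive cells, and only 6 Txk and 8 Tcf7 UMIs. DESeq2 called none, with 1 gene at an unadjusted p under 0.05.

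Within the naive cells the called genes Tcf7, S1pr1, Txk and Actn1 were found in different combinations. Of the 105 cells, 16 had a UMI of none of these 4 genes, 27 of 1, 36 of 2, 16 of 3 and 10 of all 4. In the other cells of the gate 33.8% had none and 1.80% all 4. These genes were picked because they were called, so the difference is a description. At this depth a missing UMI does not show that a gene is silent.

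At this depth few genes had a variance between naive cells well above their mean. For genes at few UMIs per cell this ratio stays near 1 even where cells differ, so it cannot show that the cells are alike. With each cell thinned to 1000 UMIs, the variance over the mean had a median of 1.02 over 1237 genes with at least 0.1 UMIs per cell, and 24 genes were above 1.5. The 6 above 2 were Actb (13.8), Malat1 (9.44), Klhl6, Lgals1, Ifi27l2a and Trbc1. Actb, the beta-actin gene, ran up to 60 of 1000 UMIs in 1 cell, and 45.5% of Klhl6 UMIs came from 1 cell. Trbc1 and Trbc2 are alternative receptor constant regions, and 57.1% of naive cells had a Trbc1 UMI. Lgals1, which the other cells carry at higher levels, had a UMI in 27.6% of naive cells.

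Naive cells of the 2 libraries were alike gene by gene. Over 506 genes with enough UMIs the log2 CPM values had a Pearson correlation of 0.976 across genes, which are not independent replicates, and 5 genes were over 2-fold apart. Set was at 420 CPM in Main1 and 201 in Main2, while Dok2, Rexo2 and Med28 were higher in Main2, with Med28 at 137 and 359 CPM. With 1 sum per library these differences have no test.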

How the data were processed

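Spleen cells were profiled by CITE-seq. Per the submitters' processing notes, bcl2fastq, Cell Ranger 3.0.2 and the mm10 build were used. The sources used here name no antibody counter. The authors deposited whole-number counts per droplet, with no normalization, for 11713 genes (11682 matched a symbol) and 30 antibodies. The labels describe 16 samples in 4 groups of 4, which the tables do not separate, so each of the libraries was 1 sample (Main1 3179 droplets, Main2 3918). Droplets with more than 1 cell were not removed.

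UMI counts were summed per library and class and tested with edgeR 4.0.16 (quasi-likelihood, TMM, library block, 1 residual degree of freedom, Benjamini-Hochberg, threshold 0.05) for genes with 50 or more UMIs. The limit of 50 UMIs was applied to both classes together, so a gene could pass it through a single class. The 10 rule genes were left out of the tests. Each library supplied cells to both classes, which is why the library was the block. The variance came mostly from a trend shared across genes, with 21.3 prior degrees of freedom in the main comparison. Against effector-like, Foxp3 or Ikzf2 and marker-poor cells the prior was infinite, so it came wholly from that trend. Antibodies were scaled to total antibody counts. DESeq2 1.42.0 and other alternatives are under the closing section. Standard errors are the fold divided by the root of F. Named genes were the 12 largest folds in each direction past the threshold (5 for the other comparisons) with the same sign in both libraries and at most 25% of UMIs from 1 cell, plus members of the gene lists. Intervals of shares are exact binomial at 95%. The scripts were tested on simulated data. The members, lists and comparisons were chosen with earlier results of these data known. Results of some genes, 1 of them among the 12 with the largest positive folds, are not reported here.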

Additional observations from a re-analysis of the deposited data

How the results depend on the processing

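No named gene or antibody changed direction in the alternatives that tested it. Some named genes had too few UMIs in some settings, and none was tested without droplets with B-cell transcripts. The share of naive cells stayed between 28.1% and 36.8%. The calls against all other gate cells (158, with 88 higher and 70 lower) were 83 without the replicate block (51 and 32). They were 76 in cells thinned to 1000 UMIs (48 and 28) and 89 in the stricter antibody gate (58 and 31). Without droplets with B-cell transcripts they were 0 (0 and 0), with 136 genes tested. That setting kept only 7 naive cells (6 in Main1, 1 in Main2) and 20 others (16 and 4). It is too small to show whether the calls hold. DESeq2 gave 1 (0 and 1). The balance of calls turned to more lower than higher with total UMIs in place of TMM (79 and 85, 48.2% higher against 55.7%) and with no filter on low counts (67 and 99, 40.4%). Against effector-like cells (41, 9 and 32) the counts were 3 without the replicate block (0 and 3), 25 with total UMIs (5 and 20), 2 with DESeq2 (0 and 2), 8 in droplets under 4000 UMIs (0 and 8) and 27 without immunoglobulin-rich droplets (21 lower); with total UMIs the median log2 fold of all genes turned from -0.06 to 0.13. Against Foxp3 or Ikzf2 cells DESeq2 gave 2 (0 and 2), and droplets under 4000 UMIs gave 45 lower. Against marker-poor cells the counts were 1 without the replicate block (0 higher), 7 with total UMIs (6 higher) and 0 with DESeq2 (0 and 0), and 2 were lower in droplets under 4000 UMIs. For antibodies, in place of 0 calls, 4 passed without the replicate block, 1 with TMM, 5 in droplets under 4000 UMIs, 4 in the stricter gate and 1 without immunoglobulin-rich droplets. The causes were not tested. The removal of immunoglobulin-rich droplets was added after seeing the data. Over all combinations of a named gene or antibody and an alternative that tested it, 245 kept their side of the threshold. Of the rest, 88 lost a call (47 of these with DESeq2 and 19 without the replicate block) and 9 gained one. Leaving out a library leaves no residual degrees of freedom, so values of single libraries have no test. Of 24 named genes of the main comparison 7 differed between 1 library and both by over 1.5-fold (Klhdc2, Ccr2, Tnfrsf4, Maf, Tbc1d4, Anxa2 and Ifitm2). With log2 (CPM + 10) ratios, Klhdc2 was at 0.30 in Main1 and 2.15 in Main2, and Tbc1d4 at -3.84 and -1.10. With 52 and 53 naive cells and 1 residual degree of freedom, genes at few UMIs are at the limit of what these sums can show.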
